A study of Saccharomyces cerevisiae with 8 samples.

Results

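The genes described here make, move and store ergosterol in the budding yeast Saccharomyces cerevisiae. There are 30 of them among 11966 annotated features, and they were taken by systematic name from a list of pathway genes. No measured value served as a filter, though earlier results of these data were known when the genes were chosen. They comprise 9 enzymes from acetyl-CoA to farnesyl pyrophosphate, 3 from farnesyl pyrophosphate to lanosterol, 11 proteins that act after lanosterol, 2 electron carriers, 2 enzymes that make steryl esters, 1 sterol transfer protein and 2 transcription factors. All 30 were found in the deposited table, and all 30 passed the filter on low values that left 11579 features in the tests, 5880 of them protein-coding genes.

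The study sequenced total RNA, freed of ribosomal RNA and with strand kept, from cells given the translation elongation inhibitor anisomycin (ANS) or the solvent DMSO for 30 minutes, and by its title it was about long noncoding RNAs that build up in the cytoplasm when ANS blocks elongation. All cells were BY4741, a haploid laboratory background that is MATa and carries his3Δ1 and leu2Δ0 together with met15Δ0 and ura3Δ0. WT denotes that strain, and upf1 denotes the same strain with the allele written upf1*::kanMX4 in the labels; UPF1 codes for a helicase at the centre of nonsense-mediated decay. Cells grew in YPD medium at 30 °C to mid-log phase, ANS was given at 100 µg/ml, and either strain with either agent gave 1 of the 4 groups, each with 2 libraries that the design text calls biological replicates.

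Ergosterol is the main sterol of fungal membranes and takes the place that cholesterol has in animal cells. Acetyl-CoA is built into mevalonate and then into farnesyl pyrophosphate, which also feeds dolichol, ubiquinone, heme A and protein prenylation, and the branch to squalene commits carbon to sterols. Squalene is oxidised, closed to lanosterol and then trimmed and desaturated in steps that use oxygen and heme, while the zinc-cluster factors Upc2 and Ecm22 bind sterol regulatory elements in promoters of the pathway and raise transcription when sterols run low.

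The promoters of several of these genes share such elements, and 6 are shown because their genes recur in the results. In the 300 bases before the start codon, the letters TCGTATA, searched on both strands, occurred in 6 of the 30 promoters (20%), against 4.62% of 6001 promoters of the genome. The variant TCGTTTA, searched the same way, occurred in 12 of 30 (40%), against 5.68%. At least 1 of the motifs was present in 18 of 30 (60%), against 9.95%, and none of the 22 matches shared a base with another. The windows below are from the RefSeq R64 genome, plus strand, 5′ to 3′, each of 60 bases, with the matches in capitals (TAAACGA is TCGTTTA read from the other strand). They lie upstream of ERG2 (chrXIII:667326-667385), ERG3 (chrXII:253561-253620), ERG10 (chrXVI:497833-497892), ERG4 (chrVII:472614-472673), ERG7 (chrVIII:238890-238949) and NCP1 (chrVIII:190286-190345).
ERG2: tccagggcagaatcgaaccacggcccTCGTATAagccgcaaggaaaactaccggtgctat
ERG3: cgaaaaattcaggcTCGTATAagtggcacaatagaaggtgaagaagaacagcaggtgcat
ERG10: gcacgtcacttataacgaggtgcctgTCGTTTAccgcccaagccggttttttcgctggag
ERG4: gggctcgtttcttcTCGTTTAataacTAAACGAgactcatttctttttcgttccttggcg
ERG7: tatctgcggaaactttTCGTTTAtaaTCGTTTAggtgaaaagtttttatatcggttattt
NCP1: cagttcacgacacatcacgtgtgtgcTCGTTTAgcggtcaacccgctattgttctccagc
ERG2 and ERG3 each hold 1 TCGTATA, while ERG4 and ERG7 each hold 2 copies of TCGTTTA. ERG5, HES1 and UPC2, which come up repeatedly below, hold neither string of letters in these 300 bases.

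The deposited values are densities, reads per nucleotide of a feature scaled by library. The scale matched median-ratio size factors of the 76 small nucleolar RNAs (snoRNAs) read in all libraries (agreement across libraries within a ratio of 1.007). This was inferred from the values, and a density is read here as a level relative to snoRNAs. Whole reads recovered from the densities summed to between 6970361 and 12016787 per library. NAM7, the symbol under which UPF1 is listed, had 2.39% of its WT density in upf1 with DMSO and 1.6% with ANS. The median protein-coding gene had a density of 0.145 and 0.146 (WT) and 0.189 and 0.173 (upf1) under DMSO, and 0.469 and 0.596 (WT) and 0.563 and 0.506 (upf1) under ANS. Because most mRNAs rose against snoRNAs with ANS, changes are given on 3 scales. The snoRNA scale uses the densities as deposited, the coding-gene scale divides each library by its median ratio over protein-coding genes, and the coding-sum scale divides it by its summed density of protein-coding genes. A lower mRNA level on any of them cannot be told apart from a higher level of the RNAs it is set against. All differences are log2 differences of density plus a pseudocount of 0.003397, with the standard error, from limma fitted over all 8 libraries and 11579 features, and a change was called at an adjusted p below 0.05 (Benjamini-Hochberg). The p-values rest on the spread between the 2 libraries of a group, pooled over the 4 groups. For each feature limma draws this spread toward its trend with level over the 11579 features.

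Sterol genes covered a wide range of mRNA levels in unstressed cells. In WT DMSO, 26 of the 30 lay above the median protein-coding gene, and their percentiles among protein-coding genes ran from 10.3 for HES1 to 95 for ERG11. ERG11 (YHR007C), the lanosterol demethylase and target of azole drugs, headed the order at a mean density of 2.31 ± 0.00418 (SD, n = 2). ERG10 (2.14 ± 0.113) and ERG13 (2.07 ± 0.018), which make acetoacetyl-CoA and HMG-CoA, came next, and ERG2, ERG4, ERG25, ERG1, ERG6, ERG3 and ERG20 followed between 1.98 and 1.78, with neighbours in that order mostly within their spread. The genes of the rate-setting HMG-CoA reductases stood far lower, HMG1 at 0.38 ± 0.0287 and HMG2 at 0.286 ± 0.00843. At the bottom were ARE2 (0.234), ARE1 (0.143), ECM22 (0.103), UPC2 (0.0631) and HES1 (0.0186 ± 0.00105). Read numbers followed the levels, from 28 to 162 reads per library for HES1 up to 4901 to 12090 for ERG11, so counting error weighs most on HES1.

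**Figure D1:**
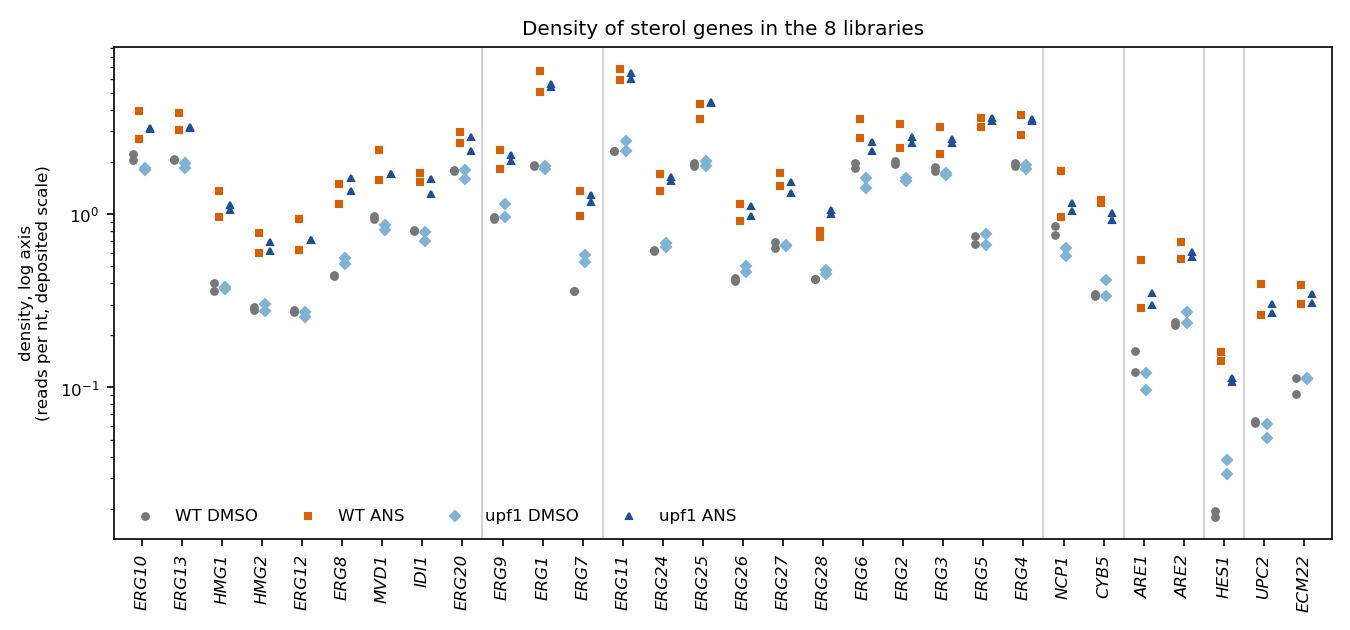
Density of the 30 genes in each of the 8 libraries on a log axis (reads per nucleotide, deposited scale), with 2 points per group and vertical lines between functional groups in pathway order. The ANS libraries sit above the DMSO libraries of the same strain for all 30 genes, and HES1, UPC2, ECM22 and the ARE genes are lowest.

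With ANS, all 30 sterol mRNAs rose relative to snoRNAs in WT and all 30 rose in upf1. This was the common behaviour of the transcriptome, since 90.2% of all features in WT and 88.7% in upf1 were called higher. The median of the sterol genes was lower, with a log2 difference of 1.27 in WT, where protein-coding genes had 1.72 and all features 1.77, and of 1.16 in upf1, where they had 1.43 and 1.37. No density of an ANS library overlapped a DMSO library of the same strain for any of the 30, and the share over all features was not computed. With 2 libraries a group, lack of overlap alone is a weak mark of change. Between upf1 and WT under DMSO, 7 of 30 lay wholly above and 12 wholly below, where 2 were called on the snoRNA scale. The share over all features was not computed there either, so these counts are not read as a result about the 30 genes. The WT ANS replicates stood apart from each other, as replicate 2 was higher than replicate 1 for 30 of 30 genes with a median ratio of 1.29, and the median coding density differed in the same direction. Without WT DMSO replicate 2, the rises of ERG2, ERG3 and NCP1 in WT missed the threshold (adjusted p = 0.0596, 0.0548 and 0.0822), and that of NCP1 also did without WT ANS replicate 2 (0.0953).

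Set against other mRNAs, the pathway split. On the coding-gene scale 3 of 30 rose and 19 fell in WT, with a median of -0.43 (0.07 over protein-coding genes, 0.28 over all features), where 35.8% of all features rose and 19.3% fell. In upf1 2 rose and 19 fell, with a median of -0.32 (-0.02 and 0.02), where 17.4% rose and 18.4% fell, and 12 fell without upf1 DMSO replicate 2. Among protein-coding genes on this scale, 33.6% rose and 29.9% fell in WT, and 24.2% rose and 27.3% fell in upf1. The direction for the middle of the 30 depended on the scale. On the coding-sum scale 16 of the 30 rose and 7 fell in WT (67.2% and 6.13% of all features). In upf1 11 rose and 5 fell (43.2% and 5.76%). The medians were 0.26 and 0.17, where protein-coding genes had 0.75 and 0.46. Of protein-coding genes 70.7% rose and 8.3% fell in WT, and 55.4% and 7.89% in upf1.

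Calls that were the same on both mRNA scales involved few genes. ERG5, HES1 and UPC2 rose on both in WT, and ERG5 and UPC2 in upf1. ERG10, ERG13, ERG20, ERG6, ERG2, ERG3 and ERG4 fell on both in WT, and ERG13, ERG20, ERG6, ERG2 and ERG3 in upf1. HMG2, ERG11, ERG24, ERG26, ERG27 and ARE2 were called lower on the coding-gene scale and higher on the coding-sum scale in WT, so their direction against mRNA depended on the scale.

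**Figure D2:**
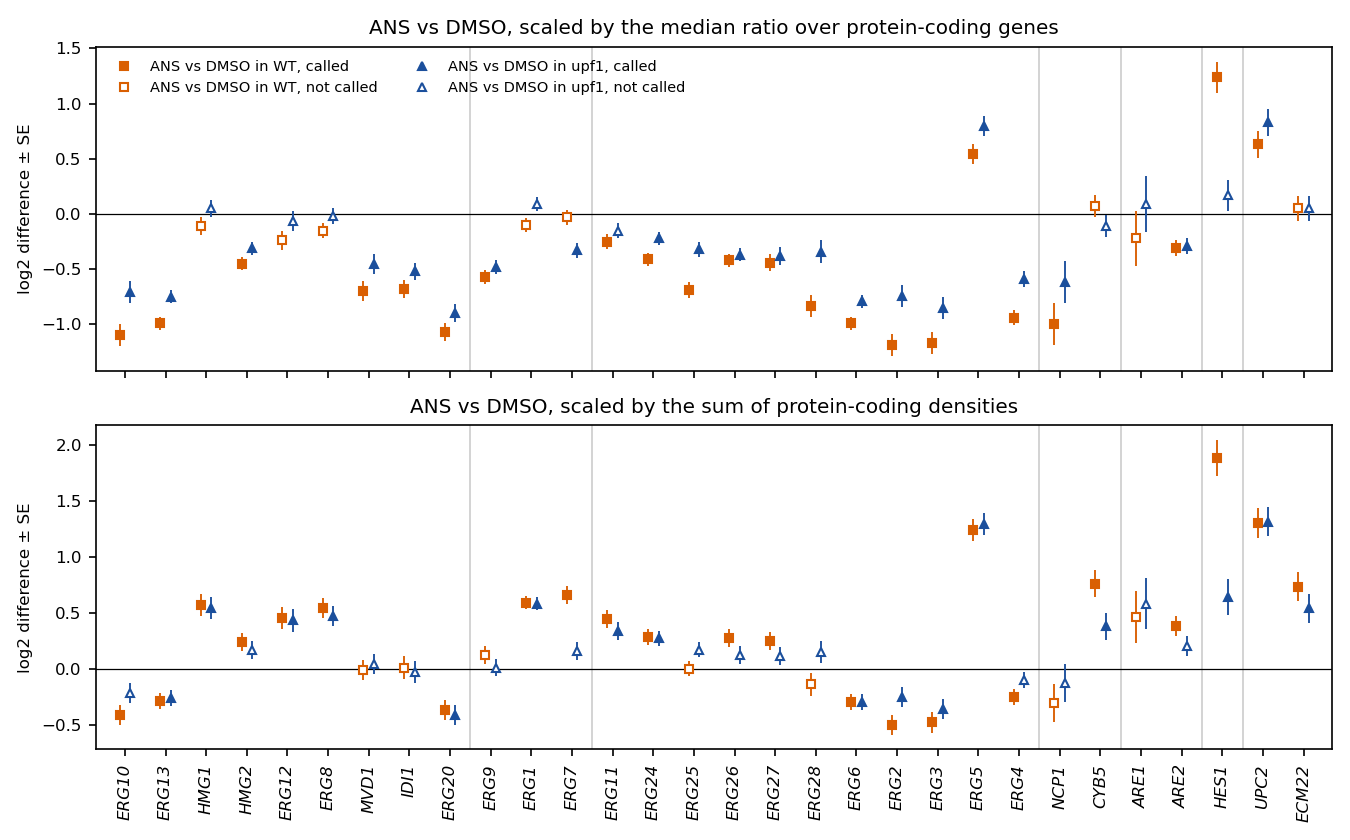
Log2 difference between ANS and DMSO for each gene in WT (squares) and upf1 (triangles), with the standard error as bars, filled where the adjusted p was below 0.05. The upper panel scales libraries by the median ratio over protein-coding genes and the lower by their summed density, and ERG5 and UPC2 stand above 0 while ERG20, ERG6, ERG2 and ERG3 stand below 0 in both strains and both panels.

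In the segment from acetyl-CoA to farnesyl pyrophosphate, ERG10, ERG13 and ERG20 lagged behind the median coding gene. ERG10 (YPL028W), which codes for acetoacetyl-CoA thiolase, had densities of 2.22 and 2.06 (WT) and 1.8 and 1.84 (upf1) under DMSO, and 2.7 and 3.91 (WT) and 3.08 and 3.15 (upf1) under ANS. Every ANS library was above every DMSO library, yet in WT the rise of 1.55-fold was far under that of the median coding gene. Its difference was 0.60 ± 0.16 on the snoRNA scale (adjusted p = 0.00535), -1.10 ± 0.10 on the coding-gene scale (adjusted p = 0.000129) and -0.41 on the coding-sum scale. ERG13 (HMG-CoA synthase), the step after ERG10, and ERG20 (farnesyl pyrophosphate synthase), at the end of the segment, did likewise. They were at -0.99 ± 0.06 and -1.07 ± 0.08 in WT and -0.75 ± 0.06 and -0.90 ± 0.08 in upf1 on the coding-gene scale. All 3 were among the 588 protein-coding genes of highest mean density, whose median was -0.86 in WT and -0.66 in upf1 on that scale. ERG10, ERG13 and ERG20 differed from that median by -0.24, -0.13 and -0.21 in WT, and by -0.05, -0.09 and -0.24 in upf1. ERG20 (YJL167W) had densities of 1.8 and 1.76 (WT) and 1.79 and 1.6 (upf1) under DMSO, and 2.58 and 2.96 (WT) and 2.77 and 2.32 (upf1) under ANS. All 4 ANS values lay above the 4 DMSO values.

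The kinases in the middle of the segment were not called against the median of mRNAs. ERG12 (mevalonate kinase) and ERG8 (phosphomevalonate kinase) were at -0.24 ± 0.09 and -0.15 ± 0.07 on the coding-gene scale in WT (adjusted p = 0.066 and 0.0982) and at -0.06 and -0.02 in upf1, and they rose on the coding-sum scale in both strains. MVD1 (mevalonate pyrophosphate decarboxylase) and IDI1 (isopentenyl pyrophosphate isomerase) were called lower on the coding-gene scale, at -0.70 and -0.68 in WT and -0.45 and -0.52 in upf1, and on the coding-sum scale they were not called, at -0.01 and 0.01 in WT. Of the 9 genes of the segment, 6 fell and none rose on the coding-gene scale in WT, with the same counts in upf1. Of all features 19.3% fell and 35.8% rose in WT, and 18.4% and 17.4% in upf1. Of protein-coding genes 29.9% fell and 33.6% rose in WT, and 27.3% and 24.2% in upf1. On the coding-sum scale ERG10, ERG13 and ERG20 fell and HMG1, HMG2, ERG12 and ERG8 rose in WT, and in upf1 ERG13 and ERG20 fell and HMG1, ERG12 and ERG8 rose.

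The HMG-CoA reductase genes changed their ratio. HMG1 (YML075C) had densities of 0.36 and 0.401 (WT) and 0.379 and 0.369 (upf1) under DMSO, and 0.967 and 1.35 (WT) and 1.13 and 1.05 (upf1) under ANS. HMG2 (YLR450W), which codes for the isozyme known for its regulated degradation, had 0.28 and 0.292 (WT) and 0.302 and 0.277 (upf1) under DMSO, and 0.597 and 0.78 (WT) and 0.688 and 0.616 (upf1) under ANS. The HMG1 to HMG2 ratio, which needs no scaling between libraries, was 1.29 and 1.37 (WT) and 1.26 and 1.33 (upf1) under DMSO, and 1.62 and 1.73 (WT) and 1.64 and 1.7 (upf1) under ANS. The 4 ANS ratios were all above the 4 DMSO ratios. ANS raised the ratio 1.26-fold in WT (95% interval 1.13 to 1.41) and 1.29-fold in upf1 (1.15 to 1.45), while upf1 over WT was 0.975 with DMSO (0.87 to 1.09) and 0.998 with ANS (0.891 to 1.12).

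The genes of the branch from farnesyl pyrophosphate to lanosterol together took a larger share of protein-coding density with ANS, as did most protein-coding genes. On the coding-sum scale 70.7% of protein-coding genes were called higher in WT (median 0.75) and 55.4% in upf1 (median 0.46). ERG1 (YGR175C), the squalene epoxidase and target of terbinafine, had densities of 1.92 and 1.9 (WT) and 1.88 and 1.81 (upf1) under DMSO, and 5.07 and 6.66 (WT) and 5.63 and 5.37 (upf1) under ANS. That is a rise of 3.07-fold in WT and 2.99-fold in upf1, and the groups did not overlap. ERG1 on the coding-gene scale was at -0.10 ± 0.06 in WT (adjusted p = 0.208) and 0.09 ± 0.06 in upf1 (0.294), and it rose on the coding-sum scale in both. ERG7 (lanosterol synthase) was at -0.03 ± 0.07 in WT on the coding-gene scale (adjusted p = 0.744) and is taken up with upf1 below. ERG9 (squalene synthase, the committed step) was lower on the coding-gene scale, at -0.57 in WT and -0.48 in upf1, and was not called on the coding-sum scale. On the coding-sum scale ERG1, ERG7 and ERG9 were at 0.59, 0.66 and 0.12 in WT and at 0.58, 0.16 and 0.01 in upf1. As a share of all protein-coding density, the 3 genes together took 0.0807% ± 0.00272 under DMSO and 0.112% ± 0.00318 under ANS in WT (SD, n = 2), and 0.0897% and 0.115% in upf1. The 9 genes before them took 0.229% and 0.21% in WT, and 0.22% and 0.208% in upf1.

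In WT, genes after lanosterol held both the lowest and nearly the highest responses, and in upf1 the smallest rise was that of ERG20 (1.5-fold), before ERG3 (1.55-fold) and ERG2 (1.68-fold). ERG2 (YMR202W), the C-8 sterol isomerase, had densities of 2.02 and 1.93 (WT) and 1.56 and 1.61 (upf1) under DMSO, and 2.39 and 3.31 (WT) and 2.56 and 2.77 (upf1) under ANS. ANS libraries were above DMSO libraries of the same strain, but the WT rise of 1.44-fold was the smallest among the 30. ERG2 stood at -1.19 ± 0.10 on the coding-gene scale in WT (adjusted p = 0.000109) and -0.50 on the coding-sum scale, and at -0.74 ± 0.10 and -0.25 in upf1. ERG3 (YLR056W), the C-5 desaturase, had 1.87 and 1.78 (WT) and 1.67 and 1.72 (upf1) under DMSO, and 2.22 and 3.16 (WT) and 2.57 and 2.7 (upf1) under ANS. It showed the same pattern as ERG2, at -1.17 ± 0.10 in WT and -0.85 ± 0.10 in upf1 on the coding-gene scale. ERG6 (YML008C), the C-24 methyltransferase that fungal sterols need and cholesterol synthesis lacks, was at -0.99 ± 0.06 and -0.79 ± 0.06, and ERG4 (YGL012W), the last reductase, at -0.94 ± 0.07 and -0.59 ± 0.07. ERG4 fell on the coding-sum scale in WT (-0.25) and was not called there in upf1 (-0.10, adjusted p = 0.292). ERG6 and ERG4 were also among the 588 protein-coding genes of highest mean density, with medians of -0.86 in WT and -0.66 in upf1 on the coding-gene scale. Against these medians ERG6 differed by -0.14 in both strains, and ERG4 by -0.09 in WT and 0.07 in upf1.

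ERG5 (YMR015C), the C-22 desaturase, a cytochrome P450 that acts between ERG3 and ERG4, did the opposite. Its densities were 0.673 and 0.751 (WT) and 0.769 and 0.66 (upf1) under DMSO, and 3.18 and 3.6 (WT) and 3.56 and 3.42 (upf1) under ANS. The 4 ANS libraries exceeded the 4 DMSO libraries without overlap, with a 4.76-fold rise in WT and 4.88-fold in upf1. On the coding-gene scale the difference was 0.54 ± 0.09 in WT (adjusted p = 0.00164) and 0.80 ± 0.09 in upf1 (0.000511), and on the coding-sum scale 1.24 and 1.29, so ERG5 rose on all 3 scales in both strains. Under DMSO ERG5 was below ERG2, ERG3, ERG4 and ERG6 in all 4 libraries, and with ANS it was above ERG2 and ERG3 in all 4. Its response did not differ between the strains at the threshold (interaction 0.26 ± 0.12 on the coding-gene scale, adjusted p = 0.239).

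The C-14 and C-4 steps lay between these extremes. ERG11, the other P450 of the pathway, had densities of 2.31 and 2.32 (WT) and 2.62 and 2.31 (upf1) under DMSO, and 5.9 and 6.82 (WT) and 6.51 and 5.97 (upf1) under ANS. It remained the gene of highest density among the 30 in WT ANS and in upf1 ANS. Its fall on the coding-gene scale in WT (-0.25 ± 0.07, adjusted p = 0.0175) turned to a rise on the coding-sum scale (0.44, adjusted p = 0.00128), and it missed the threshold without WT DMSO replicate 1, WT DMSO replicate 2 or WT ANS replicate 2 (adjusted p = 0.075, 0.0644 and 0.079). ERG24 (C-14 reductase) and the C-4 demethylation genes ERG25, ERG26 and ERG27 were between -0.69 and -0.41 in WT and between -0.38 and -0.22 in upf1 on the coding-gene scale. On the coding-sum scale ERG24 (0.28), ERG26 (0.27) and ERG27 (0.25) were called higher in WT and ERG24 (0.27) in upf1, while ERG25 was called in neither (0.00 and 0.17). ERG28 (YER044C), which codes for a scaffold of the C-4 enzymes, was at -0.83 ± 0.10 in WT and -0.34 ± 0.10 in upf1, and was called on the coding-sum scale in neither.

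The electron carriers parted ways. NCP1 (YHR042W), the cytochrome P450 reductase, had densities of 0.852 and 0.759 (WT) and 0.57 and 0.637 (upf1) under DMSO, and 0.967 and 1.77 (WT) and 1.04 and 1.16 (upf1) under ANS. WT ANS replicate 1 lay little above the WT DMSO libraries and replicate 2 far above them, and the groups did not overlap. NCP1 stood at -1.0 ± 0.19 in WT and -0.62 ± 0.19 in upf1 on the coding-gene scale (adjusted p = 0.00352 and 0.0376), and neither was called on the coding-sum scale. The upf1 call was lost on leaving out any 1 of the 4 upf1 libraries (adjusted p from 0.0552 to 0.191) or WT DMSO replicate 2 (0.0502), and without a variance trend (0.0755). CYB5 (cytochrome b5) was at 0.07 ± 0.10 and -0.11 ± 0.10 on the coding-gene scale (adjusted p = 0.596 and 0.458) and rose on the coding-sum scale in both strains.

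Storage genes rose against snoRNAs with no clear shift between the isozymes. ARE1 and ARE2 code for the acyltransferases that turn sterols into steryl esters for lipid droplets. ARE1 (YCR048W) had densities of 0.163 and 0.123 (WT) and 0.0964 and 0.121 (upf1) under DMSO, and 0.286 and 0.544 (WT) and 0.298 and 0.352 (upf1) under ANS. The ARE1 to ARE2 ratio overlapped between ANS and DMSO in both strains, at 0.68 and 0.538 (WT) and 0.352 and 0.514 (upf1) under DMSO, and 0.522 and 0.783 (WT) and 0.495 and 0.622 (upf1) under ANS. The ANS effect on it was 1.06-fold in WT with a 95% interval of 0.562 to 1.99, and 1.31-fold in upf1 (0.694 to 2.46). ARE2 (YNR019W) had densities of 0.24 and 0.229 (WT) and 0.274 and 0.236 (upf1) under DMSO, and 0.548 and 0.694 (WT) and 0.602 and 0.565 (upf1) under ANS. The ANS and DMSO libraries of ARE2 did not overlap in either strain. It was at -0.31 ± 0.07 in WT on the coding-gene scale and 0.38 on the coding-sum scale. ARE1 overlaps the open reading frame YCR050C on the other strand by 298 bases, and the sources used here do not say whether strand was used in counting, so reads from the pair cannot be told apart. ARE1 densities did not overlap between ANS and DMSO in either strain, and the WT ANS replicates were far apart.

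HES1 (YOR237W), which codes for a sterol transfer protein of the oxysterol-binding family, rose most in WT. Its densities were 0.0179 and 0.0193 (WT) and 0.0384 and 0.0318 (upf1) under DMSO, and 0.143 and 0.16 (WT) and 0.114 and 0.108 (upf1) under ANS. The 4 groups did not overlap, and the order ran from WT DMSO through upf1 DMSO and upf1 ANS to WT ANS. The difference between upf1 ANS and WT ANS was not called on any scale. ANS raised it 8.15-fold in WT and 3.16-fold in upf1. Its rise on the coding-gene scale was 1.24 ± 0.14 in WT (adjusted p = 0.000356), and the difference in upf1 was 0.17 ± 0.14 (adjusted p = 0.392). On the coding-sum scale it rose in both, by 1.88 ± 0.16 in WT (adjusted p = 3.69e-05) and 0.64 ± 0.16 in upf1 (0.011).

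The transcription factor genes of the pathway also differed from each other. UPC2 (YDR213W) had densities of 0.064 and 0.0623 (WT) and 0.0612 and 0.0512 (upf1) under DMSO, and 0.261 and 0.397 (WT) and 0.301 and 0.268 (upf1) under ANS, a rise of 5.21-fold in WT and 5.07-fold in upf1. ECM22 (YLR228C), its paralog, had 0.0914 and 0.114 (WT) and 0.113 and 0.112 (upf1) under DMSO, and 0.302 and 0.39 (WT) and 0.348 and 0.308 (upf1) under ANS, a rise of 3.37-fold and 2.92-fold. UPC2 rose on the coding-gene scale (0.63 ± 0.12 in WT, adjusted p = 0.00327, and 0.83 ± 0.12 in upf1, adjusted p = 0.00154), where ECM22 was at 0.05 ± 0.11 in both. On the coding-sum scale ECM22 was called higher, at 0.73 ± 0.13 in WT (adjusted p = 0.00163) and 0.54 ± 0.13 in upf1 (0.0122). The UPC2 to ECM22 ratio was 0.7 and 0.548 (WT) and 0.541 and 0.459 (upf1) under DMSO, and 0.863 and 1.02 (WT) and 0.865 and 0.873 (upf1) under ANS, so the ANS and DMSO libraries did not overlap. The ratio rose 1.51-fold in WT (95% interval 1.09 to 2.11) and 1.74-fold in upf1 (1.25 to 2.43). The WT interval came to include no change without WT DMSO replicate 2, WT ANS replicate 2, upf1 ANS replicate 1 or upf1 ANS replicate 2, and over the 8 libraries left out in turn the log2 difference of the WT ratio ran from 0.42 to 0.77.

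**Figure D3:**
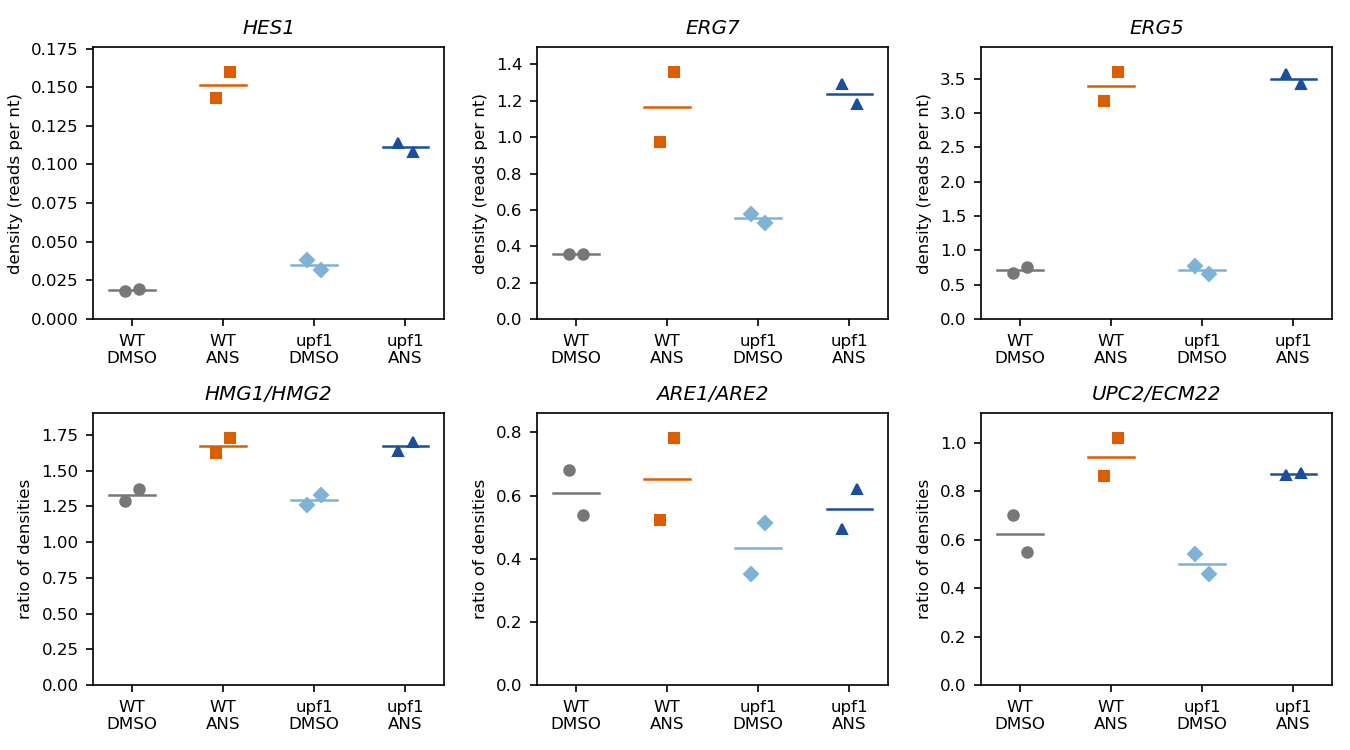
Density of HES1, ERG7 and ERG5 (upper row, reads per nucleotide) and the density ratios of the paralog pairs (lower row) in each library, with the group mean as a line and all axes starting at 0. ERG5 is higher with ANS in both strains, HES1 and ERG7 start higher in upf1 with DMSO, and the HMG1 to HMG2 and UPC2 to ECM22 ratios are higher with ANS.

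Responses to ANS ran against the starting level, as they did across the transcriptome. Over the 30 genes the Spearman correlation between the WT DMSO density and the log2 difference on the snoRNA scale was -0.68 in WT and -0.63 in upf1, and over 5880 protein-coding genes it was -0.542 and -0.33. For the WT response the axes share the WT DMSO libraries, and genes are not replicates, so these are descriptions. Protein-coding genes were cut into 10 bins of 588 by mean density over all libraries, and the bin medians of the WT response on the snoRNA scale peaked at 1.99 in bin 3 and fell to 0.85 in bin 10. Of the sterol genes 11 were in bin 10 and 23 in bins 8 to 10. Against the median of their own bin, 19 of 30 were lower in WT (median difference -0.14) and 20 of 30 in upf1 (-0.08).

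Read this way, the order of the members changed. ERG5 stood 1.40 above its bin in WT and 1.46 in upf1, ERG1 stood 0.76 and 0.75 above, and ERG11 0.61 and 0.51 above. The bins include the ANS libraries, so a gene's own large rise can move it to a higher bin with a lower median. ERG5 was in bin 10 but at percentile 86.6 of protein-coding genes in WT DMSO. The median of bin 9 was 1.24 in WT and 1.19 in upf1, so part of the ERG5 distance may come from its bin. HES1 was 0.88 above its bin in WT and 0.11 in upf1, and UPC2 0.30 and 0.73. ERG28 differed from its bin by -0.76 in WT and -0.30 in upf1, and NCP1 by -0.54 and -0.33. ERG2 and ERG3, the lowest in WT on the other scales, differed by -0.34 and -0.31 in WT and by -0.08 and -0.19 in upf1. On the snoRNA scale, with no bin median taken off, genes with a sterol regulatory motif in the 300 bases had a median log2 difference of 1.07 in WT (18 genes, 0.51 to 1.76). Those without had 1.45 (12 genes, 0.71 to 2.82). In upf1 the medians were 1.07 and 1.38, and the ranges overlapped widely. HES1 and UPC2, the genes of lowest density in WT DMSO, were among those without, so this comparison does not separate motif from level.

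**Figure D4:**
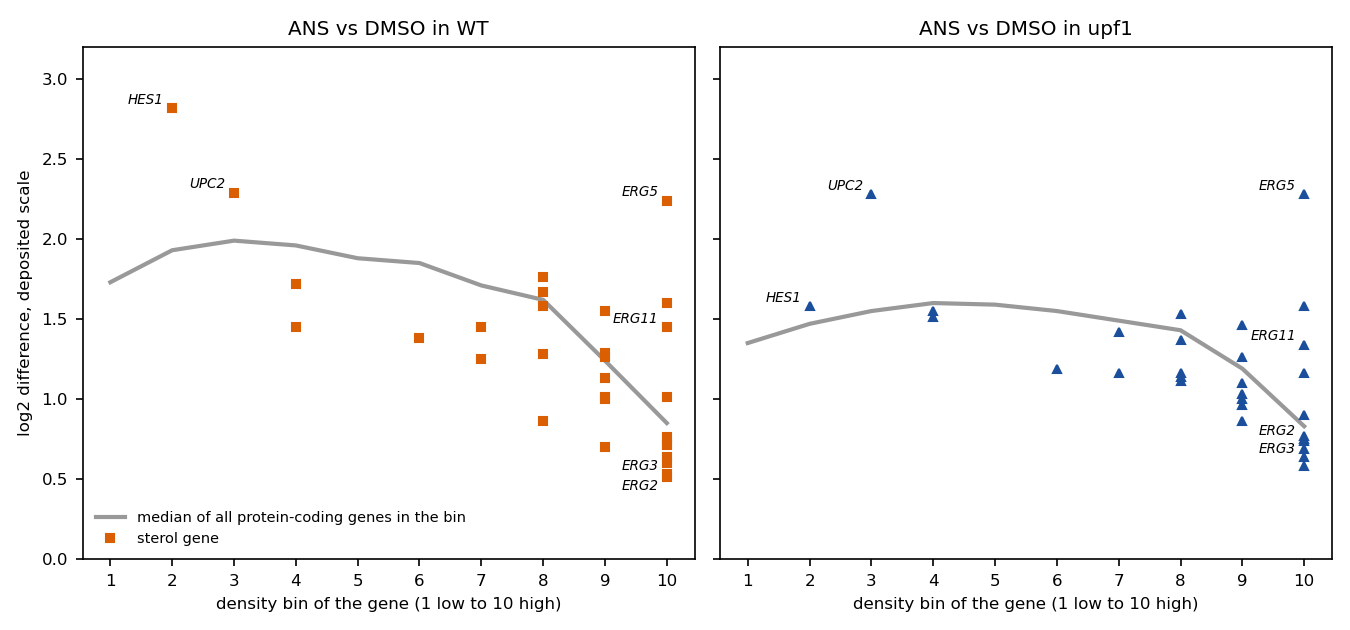
Log2 difference between ANS and DMSO on the deposited snoRNA scale (vertical) for each sterol gene by density bin (horizontal, 10 bins of protein-coding genes), in WT on the left and upf1 on the right, with the bin median of all protein-coding genes as a line. Most sterol genes lie in bins 8 to 10 near or under the line, while ERG5 stands far above it in both strains.

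Loss of Upf1 alone changed few of these mRNAs relative to snoRNAs. With DMSO, 2 of 30 were higher in upf1 than in WT, ERG7 and HES1, and none was lower, where 31.6% of all features were higher and 0.613% lower (limma, 0 members lower at an unadjusted p under 0.05 too). Without WT ANS replicate 1, or without WT ANS replicate 2, 4 members were lower. The median of the 30 was -0.01, that of protein-coding genes 0.10 and that of all features 0.32. ERG7 (YHR072W) had densities of 0.36 and 0.36 in WT and 0.578 and 0.529 in upf1 under DMSO, which is 1.54-fold higher, and the groups did not overlap. Its difference was 0.61 ± 0.17 on the snoRNA scale (adjusted p = 0.019), 0.37 ± 0.07 on the coding-gene scale (0.00394) and 0.67 on the coding-sum scale (0.000336). The snoRNA-scale call was lost on leaving out any 1 of the 4 DMSO libraries (adjusted p from 0.0568 to 0.129). The HES1 difference was 0.80 ± 0.19 (adjusted p = 0.00959), 0.62 ± 0.14 (0.0106) and 0.88 (0.00247) on the 3 scales, and it missed the threshold on the snoRNA scale without WT DMSO replicate 1 (0.0519) or upf1 DMSO replicate 1 (0.104), and on the coding-gene scale without the latter (0.0701). Scaling by all tested features, many of them noncoding, took both under the threshold (0.08 for ERG7 and 0.35 for HES1).

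Against other mRNAs the count in upf1 depended on the scale. On the coding-gene scale 17 of 30 were lower and 2 higher (16.3% and 30.9% of all features, 29.5% and 21.8% of protein-coding genes). The median of the 30 was -0.26, where protein-coding genes had -0.13 and all features 0.14. The 17 became 9 without WT DMSO replicate 1 or upf1 DMSO replicate 1, 11 without WT DMSO replicate 2, 10 without upf1 DMSO replicate 2, 10 without a variance trend and 8 in a fit of the 2 DMSO groups. On the coding-sum scale 2 were lower, ERG6 (-0.28 ± 0.07, adjusted p = 0.0146) and ERG2 (-0.26 ± 0.09, 0.0457), and 4 higher, ERG7, HES1, ERG8 and ERG26 (1.64% and 39.9% of all features). ERG6 densities were 1.96 and 1.85 in WT and 1.61 and 1.42 in upf1 under DMSO, without overlap. ERG6 lay at the 5.48th percentile of protein-coding genes in this comparison on the snoRNA scale, ERG2 at the 6.16th, NCP1 at the 2.82nd and ARE1 at the 3.76th.

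**Figure D5:**
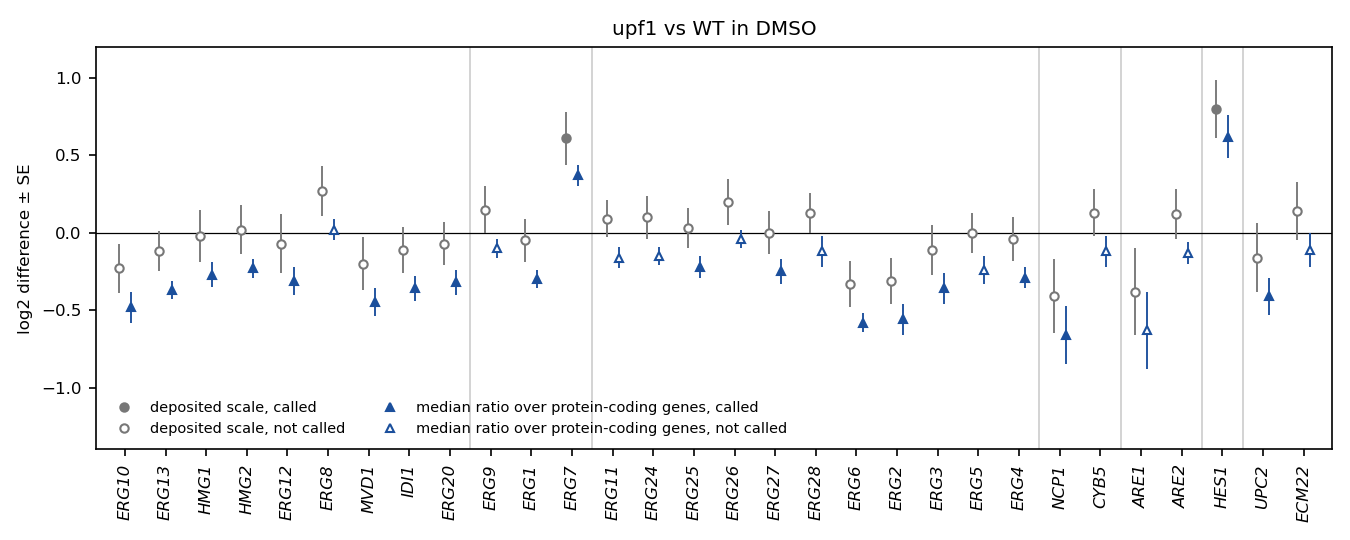
Log2 difference between upf1 and WT with DMSO for each gene, with the standard error, on the deposited scale (circles) and scaled by the median ratio over protein-coding genes (triangles), filled where the adjusted p was below 0.05. ERG7 and HES1 are called higher on both scales, and the 17 genes called lower on the second scale are not called on the first.

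With ANS present, fewer of the 30 were called between the strains. On the snoRNA scale none of the 30 was called by limma (2.69% of all features higher and 0.216% lower), with 1 higher and 1 lower at an unadjusted p under 0.05 and 1 called higher without WT ANS replicate 2. On the coding-gene scale ERG6 was lower in upf1 (-0.38 ± 0.06, adjusted p = 0.0157) and none was higher, where 1.91% of all features were lower and 5.4% higher, and 1 member was higher at an unadjusted p under 0.05. ERG6 densities were 2.74 and 3.54 in WT ANS and 2.59 and 2.3 in upf1 ANS, without overlap, and its call was lost on leaving out any 1 of the 4 ANS libraries (adjusted p from 0.0643 to 0.126). It was lower on the coding-sum scale as well (-0.28, adjusted p = 0.0472), where ERG28 was higher (0.48 ± 0.10, adjusted p = 0.0273) and 0.639% and 9.59% of all features were lower and higher. ERG28 densities were 0.739 and 0.801 in WT ANS and 0.997 and 1.05 in upf1 ANS, without overlap.

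The response to ANS differed between the strains for HES1. The interaction, the log2 response in upf1 minus that in WT, was -1.24 ± 0.27 for HES1 on the snoRNA scale (adjusted p = 0.0248), -1.07 ± 0.20 on the coding-gene scale (0.0172) and -1.24 ± 0.22 on the coding-sum scale (0.00931). HES1 was the 1 member called on the first 2 of these scales, and it was lower, as were 8.36% of all features on the snoRNA scale and 10.5% on the coding-gene scale, where 0.734% were higher. No member was called higher, with 0 on the snoRNA scale and 6 on the coding-gene scale at an unadjusted p under 0.05. The HES1 call was lost without 6 of the 8 libraries in turn on the snoRNA scale (-1.12 to -1.36, adjusted p from 0.0548 to 0.136) and without 5 of the 8 on the coding-gene scale (-0.98 to -1.12, 0.0608 to 0.0833), and the sign was negative each time. ERG7 had an interaction of -0.51 ± 0.24 (adjusted p = 0.259) and -0.30 ± 0.09 (0.0933) on these scales and was called without WT ANS replicate 1 on the snoRNA scale (-0.75, 0.0197) and on the coding-sum scale (-0.50 ± 0.11, 0.0244), where 14.9% of all features were lower. Its densities with ANS were 0.974 and 1.36 in WT and 1.29 and 1.18 in upf1, which overlapped. ERG5 rose 4.76-fold and 4.88-fold and UPC2 5.21-fold and 5.07-fold in the strains, and neither had a called interaction.

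As a sum the 30 genes held 0.709% and 0.734% (WT) and 0.722% and 0.709% (upf1) of protein-coding density under DMSO, and 0.75% and 0.758% (WT) and 0.765% and 0.771% (upf1) under ANS. The ANS libraries were all above the DMSO libraries. On the same denominator the median protein-coding gene rose by a log2 difference of 0.75 in WT and 0.46 in upf1. The median of the 30 genes rose less, by 0.26 and 0.17. The share of the regulator genes UPC2 and ECM22 went from 0.00416% ± 0.0005 to 0.00828% ± 0.000576 in WT (SD, n = 2) and from 0.00438% to 0.00798% in upf1.

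Other genes of sterol biology, from lists drawn up for this pathway, rose with ANS on the snoRNA scale in both strains: 18 of 18 genes of sterol transport, 7 of 7 of steryl ester hydrolysis, sterol acetylation and triacylglycerol synthesis, and 17 of 17 of further regulators and of Hmg protein degradation, where 90.2% (WT) and 88.7% (upf1) of all features rose. For the counts in WT that follow, 35.8% of all features rose and 19.3% fell on the coding-gene scale, and 67.2% rose and 6.13% fell on the coding-sum scale. Of the transport genes 1 rose and 4 fell on the coding-gene scale in WT (median 0.07), while 15 rose and none fell on the coding-sum scale. PDR11, which codes for a sterol importer, had densities of 0.0164 and 0.0146 (WT) and 0.0484 and 0.0424 (upf1) under DMSO, and 0.081 and 0.109 (WT) and 0.134 and 0.122 (upf1) under ANS. It rose in WT on all 3 scales (0.82 ± 0.14 on the coding-gene scale), was higher in upf1 than in WT with DMSO on all 3 (1.21 ± 0.14), and its groups did not overlap. SWH1, an oxysterol-binding protein gene, fell on the coding-gene scale (-0.73 ± 0.10) and was at -0.04 on the coding-sum scale. Of the ester and triacylglycerol genes none rose and 3 fell on the coding-gene scale (median -0.14) and 6 rose on the coding-sum scale, and LRO1 was at -0.53 and 0.15. In the list of regulators 4 rose and 6 fell on the coding-gene scale (median -0.10), and 12 rose and 1 fell on the coding-sum scale. ROX1, the heme-dependent repressor of hypoxic genes, rose in WT by 3.25 ± 0.22, 1.61 ± 0.15 and 2.28 ± 0.16 on the 3 scales, from densities of 0.045 and 0.0433 to 0.392 and 0.516. SPF1, an endoplasmic reticulum ATPase gene linked to Hmg2 turnover, fell on the coding-gene scale (-0.82 ± 0.06) and was at -0.12 on the coding-sum scale.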

How the data were processed

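The deposited table holds, per the file headers, a normalized density (signal) for 11966 features in 8 libraries, with 4 columns of the authors' group means that were not tested. The submitters' processing notes name Trim Galore, HISAT2 2.2.0, featureCounts 2.0.0, DESeq2 with build R64. What each tool contributed to the deposited signal is not given in the sources used here. For 100% of the 11954 features above 0, 1 length turned the densities into whole reads (tolerance 1e-05 reads), which were used for depth only. The counted length exceeded the coding length for 29 of the 30 genes. The protocol's ERCC RNA was not used here.

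A pseudocount of 0.003397, set at the 0.05 quantile of densities above 0, was added before taking log2, and the result was tested with limma 3.58.1 in R 4.3.3, with a variance trend, 1 mean for each of the 4 groups and 4 residual degrees of freedom. The test was two-sided, with Benjamini-Hochberg adjustment over 11579 features with a mean density at or above the pseudocount. A log2 difference on this scale understates the change of low genes. The comparisons of ANS with DMSO in WT and of upf1 with WT under DMSO share the WT DMSO libraries, so their values are given side by side only. Ratios of paralogs were fitted per library on the log2 scale with 95% intervals. Promoter windows are the 300 bases before the coding start in the RefSeq genome of build R64. All 30 genes are named, with every library's value for those with the largest changes, those called in a strain comparison and paralog pairs, and of the other lists at most the 2 with the smallest adjusted p per comparison. The genes and lists were chosen with earlier results of these data known. Other pseudocounts, no filter, no trend, fits of 2 groups, a replicate block, other scalings and leaving out each library were tried.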

Additional observations from a re-analysis of the deposited data

Results flagged for a closer look

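HES1 is listed here because its response to ANS differed between WT and upf1 by a test of the difference itself. The log2 response in upf1 minus that in WT was -1.24 ± 0.27 on the deposited scale (limma, adjusted p = 0.0248) and -1.07 ± 0.20 relative to protein-coding genes (adjusted p = 0.0172). The densities went from 0.0179 and 0.0193 to 0.143 and 0.16 in WT, and from 0.0384 and 0.0318 to 0.114 and 0.108 in upf1. The upf1 libraries were thus above WT under DMSO and below WT under ANS. The difference under ANS was not called on any of the 3 scales (-0.36 ± 0.16 on the coding-sum scale, limma, adjusted p = 0.178). The call on the deposited scale was kept without WT DMSO replicate 2 or WT ANS replicate 1 and missed the threshold without each of the other 6 libraries, with a negative value each time. With 28 to 162 reads per library, HES1 had the fewest reads of the 30 genes.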

How the results depend on the processing

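The rise of all 30 genes with ANS on the deposited scale was called under each other pseudocount, without a filter, without a trend, in fits of 2 groups and with the replicate block, and leaving out 1 library gave 27 to 30 in WT and 30 in upf1. Scaling by the sum of protein-coding densities changed the coding-gene counts to 16 higher and 7 lower with ANS in WT, 11 and 5 in upf1, 4 and 2 for upf1 against WT under DMSO, 1 higher under ANS, and 2 lower in the interaction. It turned the sign of called genes. In WT with ANS these were HMG2 (0.24), IDI1 (0.01), ERG9 (0.12), ERG11 (0.44), ERG24 (0.28), ERG25 (0.00), ERG26 (0.27), ERG27 (0.25) and ARE2 (0.38). In upf1 with ANS they were HMG2 (0.17), MVD1 (0.04), ERG9 (0.01), ERG7 (0.16), ERG24 (0.27), ERG25 (0.17), ERG26 (0.12), ERG27 (0.11), ERG28 (0.15) and ARE2 (0.20). For upf1 against WT under DMSO they were HMG1 (0.03), HMG2 (0.07), ERG1 (0.00), ERG25 (0.08), ERG27 (0.05) and ERG4 (0.01). The scaling basis alone differs between these values. Scaling by all tested features gave 0 higher and 28 lower for upf1 under DMSO, 6 lower under ANS and 7 higher in the interaction. The shares of all features called on that scale were not computed, so these counts are not read as a result about the 30 genes. For upf1 under DMSO on the deposited scale, all features had a median of 0.32, protein-coding genes 0.10 and the 30 genes -0.01.

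Without a variance trend 10 genes were lower in upf1 under DMSO on the coding-gene scale and 0 under ANS. Fits of only the 2 groups gave 3 lower under DMSO on the deposited scale, 8 on the coding-gene scale and 0 under ANS. The pseudocount 5 times as large left 0 lower in the interaction (HES1 -0.94, adjusted p = 0.0526). The cause was not tested. Deviations of same-numbered libraries correlated between -0.188 and 0.258 over 6 pairs of groups, with 3 pairs above 0.1. These values cannot tell whether same-numbered libraries were prepared together, and the main fits did not pair them. The fit with the replicate block gave 1 gene higher in the interaction on the coding-gene scale and lost ERG28 with ANS in upf1 (adjusted p = 0.0507) and ERG27 in upf1 under DMSO (0.0528). With all features as denominator the summed share was 0.463% under DMSO and 0.58% under ANS in WT, and 0.455% and 0.574% in upf1.

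Leaving out 1 library, with the lone partner assumed to vary like the other groups, gave these ranges. On the deposited scale 0 to 2 genes were lower in the interaction, 0 to 2 higher and 0 to 4 lower for upf1 under DMSO, and 0 to 1 higher under ANS. On the coding-gene scale 12 to 19 were lower with ANS in upf1, 0 to 1 lower in the interaction, 1 to 2 higher and 9 to 17 lower for upf1 under DMSO, and 0 to 1 lower under ANS. The log2 difference of the UPC2 to ECM22 ratio in WT ran from 0.42 to 0.77. Of the single-gene results, 941 kept their direction and side of the threshold, 90 missed it and 1 newly passed it. With 2 libraries a group, small differences could not be resolved.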

Other observations

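Neighbouring pathways are given by their counts with ANS, where in WT 35.8% of all features rose and 19.3% fell on the coding-gene scale, and 67.2% rose and 6.13% fell on the coding-sum scale. All 8 genes of fatty acid synthesis, elongation and desaturation fell on the coding-gene scale with ANS in WT (median -1.21) and 6 of 8 fell on the coding-sum scale, with 7 and 5 in upf1 (18.4% and 5.76% of all features). Of protein-coding genes 29.9% fell in WT and 27.3% in upf1 on the coding-gene scale. The 588 protein-coding genes of highest mean density had a median of -0.86 in WT on that scale, and the fatty acid genes were not set against genes of like density. FAS1, a subunit gene of fatty acid synthase, had densities of 3.61 and 3.78 in WT DMSO and 3.6 and 5.35 in WT ANS, which overlapped, and its difference was 0.25 ± 0.17 on the deposited scale (adjusted p = 0.189) and -1.45 ± 0.09 on the coding-gene scale. ACC1, which codes for acetyl-CoA carboxylase, was at 0.40 ± 0.18 and -1.30 ± 0.08. Of 9 genes of the isoprenoid branches that draw on the same precursors, 4 rose and 2 fell on the coding-gene scale in WT, and 8 rose on the coding-sum scale. MOD5, a transfer RNA isopentenyltransferase gene, rose by 0.60 ± 0.13 and BTS1, geranylgeranyl pyrophosphate synthase, by 0.58 ± 0.15 on the coding-gene scale. Of 8 heme synthesis genes, 4 fell on the coding-gene scale and 6 rose on the coding-sum scale.

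Of 8 cell wall mannoprotein genes known for expression without oxygen, 4 (PAU23, TIR4, TIR2 and DAN4) were higher in upf1 than in WT under DMSO on the deposited scale (median 1.06), where 31.6% of all features were higher, and 4 were not called. Reads were few for some of them, at 0 to 13 per library for DAN1 and 3 to 15 for PAU24, which were not called. PAU23 had densities of 0.028 and 0.0368 (WT) and 0.137 and 0.172 (upf1) under DMSO, and 0.247 and 0.293 (WT) and 0.385 and 0.387 (upf1) under ANS. It was higher in upf1 under DMSO by 2.14 ± 0.20 and its interaction was -1.63 ± 0.28 (limma, adjusted p = 0.0112). PAU genes are near-identical copies, so its reads may be shared among them. HEM12, uroporphyrinogen decarboxylase, had densities of 0.393 and 0.398 in WT and 0.742 and 0.752 in upf1 under DMSO, a difference of 0.91 ± 0.18 on the deposited scale (adjusted p = 0.00277).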
